A study of Mus musculus with 2 samples.

Results

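Described here are 8 genes of the RAS/ERK mitogen-activated protein kinase (MAPK) pathway and its feedback, Dusp6, Dusp9, Klhl13, Spry2, Spry4, Egr1, Etv4 and Etv5, chosen by name from the 32285 genes counted in each library. All 8 were found and all 8 passed the filter on low values in every comparison. The cells were mouse embryonic stem (ES) cells of the strain C3H/HeSn-Paf/J, from 9 independent lines, 3 each of XX, XO and XY embryos, combined in 1 pool. The pool was captured once early in culture (time 1) and once 10 passages later (time 2), as 1 droplet library each, so no test between time points is possible and every interval below covers counting error only. At both times the cells grew in serum with leukaemia inhibitory factor (LIF) on gelatin and irradiated mouse embryonic fibroblasts (feeders). Cells were not tied to lines here, so a change in which lines make up the pool and a change within a line cannot be told apart.

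In naive ES cells, autocrine FGF4 acts through FGF receptors, RAS and the kinases RAF, MEK and ERK, and this signal moves cells out of the naive state towards the primed state of the later epiblast. ERK switches on immediate early genes such as Egr1, a zinc finger transcription factor, and the ETS factors Etv4 and Etv5, and with them its own inhibitors. Dusp6 and Dusp9 encode phosphatases that remove the activating phosphates from ERK, and the Sprouty proteins Spry2 and Spry4 act further up, between receptor and RAF. Dusp9 and Klhl13, an adaptor of a cullin ubiquitin ligase, lie on the X chromosome and are known from work on ES cells that differ in their number of active X chromosomes.

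In the GRCm38 annotation (GENCODE M21) all 8 are protein-coding genes. Dusp6 lies at chr10:99263231-99267489 and Dusp9 at chrX:73639419-73643514, both on the plus strand. Klhl13 at chrX:23219271-23365082, Spry2 at chr14:105891947-105896819, Etv4 at chr11:101769742-101785371 and Etv5 at chr16:22381309-22439719 lie on the minus strand. No sequence is shown for Dusp9, Etv4, Spry4 and Egr1. RefSeq promoter sequences (GRCm38.p6) were at hand for 4 of the 8 genes and are shown for these. Each line gives the 250 bases before a transcription start, 5′ to 3′ on the gene's strand, outside all exons of GENCODE M21. The windows are chr10:99262981-99263230 on the plus strand for Dusp6, chr14:105896820-105897069 on the minus strand for Spry2, chr16:22438369-22438618 on the minus strand for the inner of 2 listed starts of Etv5, and chrX:23365083-23365332 on the minus strand for the outermost of 5 listed starts of Klhl13. Capitals mark matches, on either strand, to the ETS letters CCGGAA, the AP-1 letters TGANTCA, the CRE letters TGACGTCA, the GC box GGGCGG or CCAAT.
Dusp6: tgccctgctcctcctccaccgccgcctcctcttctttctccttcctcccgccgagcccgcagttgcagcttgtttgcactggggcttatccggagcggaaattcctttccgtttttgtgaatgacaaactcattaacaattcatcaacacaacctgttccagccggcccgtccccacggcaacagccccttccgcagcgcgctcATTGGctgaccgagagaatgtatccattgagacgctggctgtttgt
Spry2: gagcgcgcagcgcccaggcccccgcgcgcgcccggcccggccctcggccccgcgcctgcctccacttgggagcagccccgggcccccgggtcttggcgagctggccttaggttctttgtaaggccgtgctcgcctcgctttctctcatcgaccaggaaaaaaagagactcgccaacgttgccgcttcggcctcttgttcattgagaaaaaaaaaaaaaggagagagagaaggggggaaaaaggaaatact
Etv5: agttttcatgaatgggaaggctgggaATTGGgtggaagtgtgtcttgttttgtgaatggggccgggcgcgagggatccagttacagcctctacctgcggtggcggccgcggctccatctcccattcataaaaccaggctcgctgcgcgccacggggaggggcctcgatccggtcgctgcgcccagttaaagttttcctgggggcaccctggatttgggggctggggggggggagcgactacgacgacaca
Klhl13: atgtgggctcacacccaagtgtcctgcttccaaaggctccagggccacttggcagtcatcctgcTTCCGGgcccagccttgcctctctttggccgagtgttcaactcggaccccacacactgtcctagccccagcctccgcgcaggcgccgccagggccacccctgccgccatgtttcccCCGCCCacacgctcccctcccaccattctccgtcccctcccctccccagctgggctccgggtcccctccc
The Klhl13 window held 1 ETS match, beginning 186 bases before the start, and 1 GC box. The windows of other listed Klhl13 starts that lie outside exons, not shown, held no ETS match. Those windows held a GC box, an AP-1 match or a CCAAT match. Dusp6 and Etv5 held 1 CCAAT match each, and Spry2 held none of the 5 motifs. Over all 32851 promoter windows of the same length, 12% held the ETS letters, 32.7% the GC box, 33.8% CCAAT, 6.75% the AP-1 letters and 1.55% the CRE letters. A match is a string of letters and says nothing on binding in these cells.

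The time 1 library gave 23210 cells with a median depth of 44365.5 unique molecular identifiers (UMIs), and the time 2 library 25483 cells with 50386. The cells of the libraries shared 157 barcodes. Cells were grouped without the 8 genes and without 73 other pathway genes into 19 clusters, and clusters were named from markers. Naive-like cells, from clusters led by Rhox9, Dppa3, Jam2, Nanos3 and Gm46332, numbered 9495 at time 1 and 19765 at time 2. Primed-like cells, from the cluster led by Fgf8, Fgf5 and Pou3f1, numbered 5870 and 436. An unnamed cluster led by T (143 and 3691 cells) had a similar marker profile. Against the median cluster, its median log2 was 1.21 for primed and -1.01 for naive markers, beside 1.63 and -1.29 in the primed-like cluster. Its cells are not counted as primed-like, so primed-like values at time 2 rest on the 436 cells alone. The differentiated classes were mesendoderm-like cells led by Lhx1, Gsc and T (221 and 253 cells) and endoderm-like cells led by Dab2, Lama1 and Cubn (70 and 111 cells). Fibroblast-like cells (598 and 689), had Col1a1, Col1a2 and Acta2 among their leading genes, and two-cell-like cells (276 and 75) had Tcstv1 among theirs. The fibroblast-like class was mixed. At the finer Leiden resolution of 1.0, 260 of its cells at time 1 and 479 at time 2 fell in clusters with low core pluripotency markers (Pou5f1, Sox2 and 4 others), which summed to 1266 and 1279 CPM. In its other 338 and 210 cells these markers summed to 6942 and 5394 CPM, beside 10388 and 6689 CPM in naive-like cells, and the fibroblast markers to 984 and 1175 CPM, beside 5183 and 4783 CPM in the cells with low core markers. Values of the class are therefore given for the cells with low core markers as well, a division chosen after seeing the data. Fibroblast-like cells may be feeders, and whether they came from the ES lines was not tested. A difference between the times in this class need not be a change of ES cells with passage. The naive-like class was held by different clusters at the 2 times: the Rhox9-led and Dppa3-led clusters gave 4615 and 3530 of its cells at time 1, and the Gm46332-led and Nanos3-led clusters 11539 and 5118 at time 2. Barcodes below the cell limit, with 500 to 2000 UMIs, were taken to carry free RNA. Their median was 1388 UMIs at time 1 and 720 at time 2, or 2.76% and 1.43% of a median naive-like cell. The chosen window bounds these medians, so the shares are an assumed level of free RNA and not a measured one. Barcodes between the window and the cell limit were not used.

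**Figure D1:**
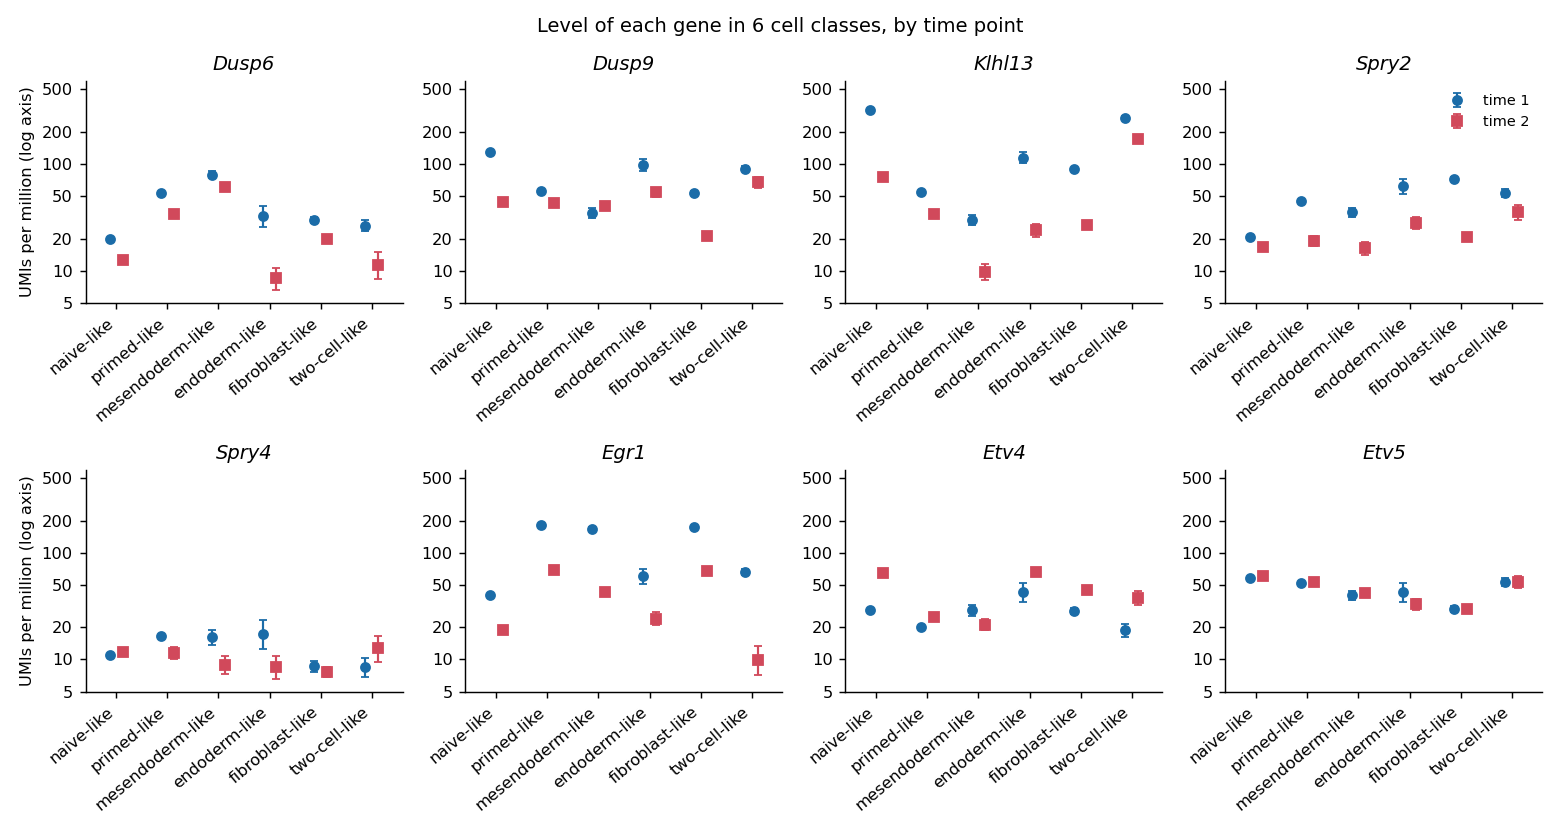
Level of each of the 8 genes, in CPM on a log axis, in 6 cell classes at time 1 (circles) and time 2 (squares), 1 library each; bars are exact Poisson 95% intervals and are hidden by the symbol where cells are many. Klhl13 spans the widest range at both times, Egr1 lies lower at time 2 in all 6 classes, and Etv5 keeps close values at both times in most classes.

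Primed-like cells carried more Egr1 and Dusp6 and less Klhl13 than naive-like cells at both times, more Spry2 and less Dusp9 at time 1, and less Etv4 at time 2. Levels are given as CPM, the UMIs of the gene in 1000000 UMIs of the class. A gene is called higher or lower, or is said to have risen or fallen, where the ratio of CPM + 1 is at least 1.5-fold and 1 of the 2 groups has at least 5 CPM. By this rule 5 of the 8 genes differed between primed-like and naive-like cells at time 1, where 22.7% of 9668 genes did, and 4 of 8 at time 2, where 26.8% of 9372 genes did. By direction, 3 were higher (11.5% of genes) and 2 lower (11.2%) at time 1, and 2 were higher (16.4%) and 2 lower (10.4%) at time 2. In the unnamed T-led cluster, 4 of the 8 genes were higher and 2 lower than in naive-like cells at time 1 (11.4% and 13.5% of genes). At time 2 the counts there were 2 higher and 3 lower (11.1% and 10% of genes).

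Of the phosphatases, Dusp6 stood at 19.7 CPM (95% interval 19.3 to 20.1) in naive-like and 54.1 CPM (53.3 to 54.9) in primed-like cells at time 1, which is a log2 ratio of 1.41 (1.38 to 1.45). At time 2 its levels were 12.7 and 34.4 CPM and the ratio was 1.36 (1.26 to 1.47), so the excess in primed-like cells was of like size at both times. Dusp9 went the other way at time 1, with 129 CPM in naive-like and 55.7 CPM in primed-like cells, a log2 ratio of -1.20. At time 2 Dusp9 stood at 43.8 and 43.3 CPM, a log2 ratio of -0.02 (-0.11 to 0.08). Klhl13 showed the widest gap of the 8 genes at time 1, 324 against 54.2 CPM or a log2 ratio of -2.56, and at time 2 the gap was 75.7 against 33.9 CPM or -1.14. A called autosome gain is a measure described with X dosage below. Among cells without one, the time 2 ratios were -1 for Dusp9, past the limit, and -2.43 for Klhl13. A gain was called in 93.9% of time 2 naive-like cells of low X dosage and in 16.3% of those of high X dosage. Leaving out cells with a gain thus also raised the share of high X dosage among naive-like cells. These ratios do not separate gains from X dosage. The X-linked genes other than these 2 had a median log2 ratio of -0.35 at time 1; at time 2 this median was 0.08.

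Of the Sprouty genes, Spry2 passed the limit at time 1 alone. Its naive-like level leaves out the unnamed Ulk4-led and Rpgrip1-led clusters, which had more Spry2 at time 1 than primed-like cells. The ratio with those clusters counted as naive-like was not computed. Adding them to the naive-like class moved the passage ratio of Spry2 from -0.30 to -1.14, as described below. The size of the Spry2 excess in primed-like cells at time 1 therefore depends on leaving these clusters out. Spry2, an inhibitor of receptor tyrosine kinase signalling, was at 20.7 CPM in naive-like and 44.8 CPM in primed-like cells at time 1 (log2 ratio 1.08) but at 16.6 and 19.1 CPM at time 2 (log2 ratio 0.19, 0.05 to 0.32). Spry4 stood at 11 and 16.4 CPM at time 1 (0.54) and at 11.6 CPM in both at time 2, under the 1.5-fold limit at each time; among cells with no called gain its time 1 ratio was 0.61, past the limit. Egr1 had the largest excess in primed-like cells: 40.1 against 184 CPM at time 1 (log2 ratio 2.17, 2.15 to 2.19) and 19.0 against 68.8 CPM at time 2 (1.80, 1.73 to 1.88). Of the ETS factors, Etv4 was lower in primed-like cells, at 29.3 against 20.2 CPM (-0.52) at time 1 and at 64.5 against 25 CPM (-1.33) at time 2, where it passed the limit. Among cells with no called gain, with the same shift towards high X dosage, the time 2 ratio of Etv4 was -0.88. Etv5 was nearly level, with 58.0 against 52.5 CPM and 60.5 against 53.5 CPM. Egr1 and Fos are among the 10 leading genes of the primed-like cluster, although neither gene was used to form it.

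Other feedback and immediate early genes were more often higher than lower in primed-like cells. The list of other feedback genes had 8 of 19 tested genes higher and 0 lower in primed-like cells at time 1, with a median log2 ratio of 0.55 beside 0.04 for all genes tested. Dusp10, a phosphatase of the stress kinases, was at 8.73 against 1.44 CPM, and Il17rd, a membrane inhibitor of FGF signalling, at 38.0 against 14.1 CPM. Of the immediate early and ETS genes, 15 of 23 were higher and 0 lower at time 1, with a median of 1.37. Fos, a subunit of the AP-1 factor, reached 188 CPM in primed-like against 29.4 CPM in naive-like cells, and Atf3, a stress-induced AP-1 partner, 45.0 against 6.77 CPM. At time 2 the counts were 11 higher and 1 lower of 19 feedback genes and 12 higher and 0 lower of 22 immediate early and ETS genes. Of all genes tested, 11.5% were higher and 11.2% lower at time 1, and 16.4% and 10.4% at time 2. The core cascade of ligand, receptors, adaptors and kinases was mixed at time 1, with a median of 0.06. Its 3 higher and 3 lower of 26 genes were near the shares of all genes. The ligand gene Fgf4 stood at 17.6 CPM in primed-like against 48.3 CPM in naive-like cells at time 1.

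In the differentiated classes Dusp6 was highest in mesendoderm-like cells, which carry genes of the gastrulating embryo. At time 1 the mesendoderm-like level was 79.8 CPM (74.5 to 85.4) and at time 2 it was 60.6 CPM (56.3 to 65.0), above the other 5 classes at both times, and the log2 ratios to naive-like cells were 1.97 and 2.16. Klhl13 was lowest there, at 30.1 and 9.76 CPM, with log2 ratios of -3.39 and -2.83. Egr1 was at 168 and 42.5 CPM in mesendoderm-like cells, and at 174 and 67.1 CPM in fibroblast-like cells. Against naive-like cells, 5 of the 8 genes passed 1.5-fold in mesendoderm-like cells at time 1 (36.3% of all genes tested did, 20.7% higher and 15.5% lower) and 4 at time 2 (39.9%, with 24% higher and 15.9% lower). The counts were 6 at time 1 (50.9%) and 5 at time 2 (53.5%) in fibroblast-like cells, and 4 (26.7%) and 3 (34.6%) in endoderm-like cells. After thinning to 10000 UMIs the endoderm-like count at time 2 was 5, with Dusp6 (-0.94) and Dusp9 (0.66) past the limit in place of -0.54 and 0.30. At time 1 thinning took Dusp6 (0.48 in place of 0.69) and Spry4 (0.14 in place of 0.62) under the limit in these cells, and Etv4 (0.69 in place of 0.53) past it. The fibroblast-like excess of Dusp6, 0.59 at time 1 and 0.60 at time 2, was under the limit with TMM scaling (0.49 and 0.50). Etv5 in mesendoderm-like cells, at -0.53 at both times, was past the limit with TMM scaling (-0.70 and -0.72). In the fibroblast-like cells with low core markers the X-linked pair lay further below naive-like cells, at -2.39 for Dusp9 and -2.95 for Klhl13 at time 1 in place of -1.26 and -1.85, and at -1.70 and -2.20 at time 2 in place of -1.01 and -1.45. Spry4 (-0.82) and Etv4 (-0.71) passed the limit there at time 2, in place of -0.55 and -0.51, which made the count 7 in place of 5.

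Endoderm-like cells, of which there were few, had the lowest Dusp6 of all classes at time 2, 8.47 CPM (6.63 to 10.7), having stood at 32.3 CPM (25.6 to 40.3) at time 1. Their Spry2 level was 62.2 CPM at time 1 and 28 CPM at time 2, above naive-like cells each time. Median depth of these cells was 28472.5 UMIs at time 1 and 64309 at time 2. With free RNA subtracted the passage ratios in these cells were -1.81 for Dusp6 and -1.13 for Spry2, against -1.81 and -1.12 without. Etv4 was highest in endoderm-like cells at both times (42.7 and 66.3 CPM), where at time 2 its interval of 60.9 to 72.0 CPM overlapped the naive-like value. Etv5 was lowest in fibroblast-like cells, at 29.4 and 29.9 CPM, log2 ratios of -0.96 and -0.99 to naive-like cells. Spry4 had the narrowest range at time 2, from 7.63 CPM in fibroblast-like to 12.7 CPM in two-cell-like cells, with overlapping intervals between most neighbouring classes.

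With passage, the naive-like class as a whole lost message of the X-linked pair and of Egr1 and gained Etv4. Between time 1 and time 2, 5 of the 8 genes passed 1.5-fold, beside 17.7% of 9231 genes, with 1 higher (5.31% of genes) and 4 lower (12.4%). Klhl13 fell from 324 to 75.7 CPM, a log2 ratio of -2.09 (-2.10 to -2.07), and Dusp9 fell from 129 to 43.8 CPM, a ratio of -1.54. Among cells with no called gain Dusp9 was at -0.57, under the limit, but at time 2 that choice also favours high X dosage. Egr1 fell from 40.1 to 19.0 CPM (-1.04), and Etv4 rose from 29.3 to 64.5 CPM (1.11, 1.09 to 1.13). Dusp6 went from 19.7 to 12.7 CPM, a ratio of -0.59 that lies at the limit; with scaling by trimmed mean of M-values (TMM), which shifts the ratios of this comparison up by 0.15, it was -0.45. Spry2 (-0.30), Spry4 (0.07) and Etv5 (0.06) did not pass; over all Pou5f1-positive cells outside other named classes Spry2 was at -1.20, past the limit. The other X-linked genes had a median ratio of -0.53, and 6 of 336 of them lay below Klhl13 and 17 below Dusp9.

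Primed-like cells moved in the same direction for Egr1, and Spry2 fell there too. The naive-like ratio of Spry2 depended on which clusters were counted, so the sizes of the 2 changes are not compared. In primed-like cells 4 of the 8 genes passed, all lower, where 3.5% of 9256 genes passed in either direction and 2.42% were lower. Egr1 fell from 184 to 68.8 CPM (log2 ratio -1.41), Spry2 from 44.8 to 19.1 CPM (-1.19), Dusp6 from 54.1 to 34.4 CPM (-0.64; -0.56 at Leiden resolution 1.0 and -0.53 with the 8 genes and lists kept in the clustering) and Klhl13 from 54.2 to 33.9 CPM (-0.66; -0.46 with free RNA subtracted). Dusp9 (-0.35), Spry4 (-0.47), Etv4 (0.30) and Etv5 (0.03) did not pass, although Spry4 was at -0.91 after thinning to 10000 UMIs and Dusp9 at -0.64 at Leiden resolution 1.0, both past the limit. In fibroblast-like cells 5 genes passed (9.83% of all genes, 3.59% higher and 6.25% lower): Spry2 fell from 72.1 to 20.9 CPM (-1.74), Klhl13 from 89.5 to 27.0 CPM (-1.69), Egr1 from 174 to 67.1 CPM (-1.36) and Dusp9 from 53.3 to 21.2 CPM (-1.29), and Etv4 rose from 28.6 to 45.0 CPM (0.63). Dusp6 (-0.58), Spry4 (-0.17) and Etv5 (0.02) did not pass in fibroblast-like cells; Dusp6 was at -0.71 there after thinning to 10000 UMIs and at -0.60 with a pseudocount of 0.1, both past the limit. With free RNA subtracted these ratios in fibroblast-like cells were -1.75 for Spry2, -1.60 for Klhl13, -1.36 for Egr1, -1.22 for Dusp9 and 0.64 for Etv4. In the cells of this class with low core markers, 4 genes passed (5.65% of all genes were higher and 6.18% lower), all of them lower: Spry2 (-1.51), Egr1 (-1.40), Klhl13 (-1.34) and Dusp9 (-0.85). Etv4 stood at 0.33 there, under the limit, and at 1.08 in the other cells of the class, whose median depth was 30757 UMIs at time 1 and 73852.5 at time 2. In mesendoderm-like cells 4 passed (13.8% of genes), all lower (9.19% of genes were lower and 4.59% higher): Egr1 (-1.96), Klhl13 (-1.53), Spry2 (-1.07) and Spry4 (-0.78). Dusp6 (-0.39; -0.65 and past the limit at Leiden resolution 1.0), Dusp9 (0.21), Etv4 (-0.42) and Etv5 (0.06) did not pass there. In endoderm-like cells 7 passed (30.6%), 6 of them lower (16.3%) and 1 higher (14.3%). The lower genes were Klhl13 (-2.21), Dusp6 (-1.81), Egr1 (-1.29), Spry2 (-1.12), Spry4 (-0.96) and Dusp9 (-0.84), and the higher one Etv4 (0.62), with Etv5 at -0.37. Thinning to 10000 UMIs left 5 genes past the limit in these cells, with Spry4 at -0.03 and Etv4 at 0.35. In two-cell-like cells 4 passed (18.5%), 3 of them lower (12.7%) and 1 higher (5.78%): Egr1 (-2.62), Dusp6 (-1.16) and Klhl13 (-0.67) fell and Etv4 (0.97) rose. Dusp9 (-0.43), Spry2 (-0.58), Spry4 (0.52) and Etv5 (-0.01) did not pass there. With 1 library per time point, library and passage cannot be told apart.

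**Figure D2:**
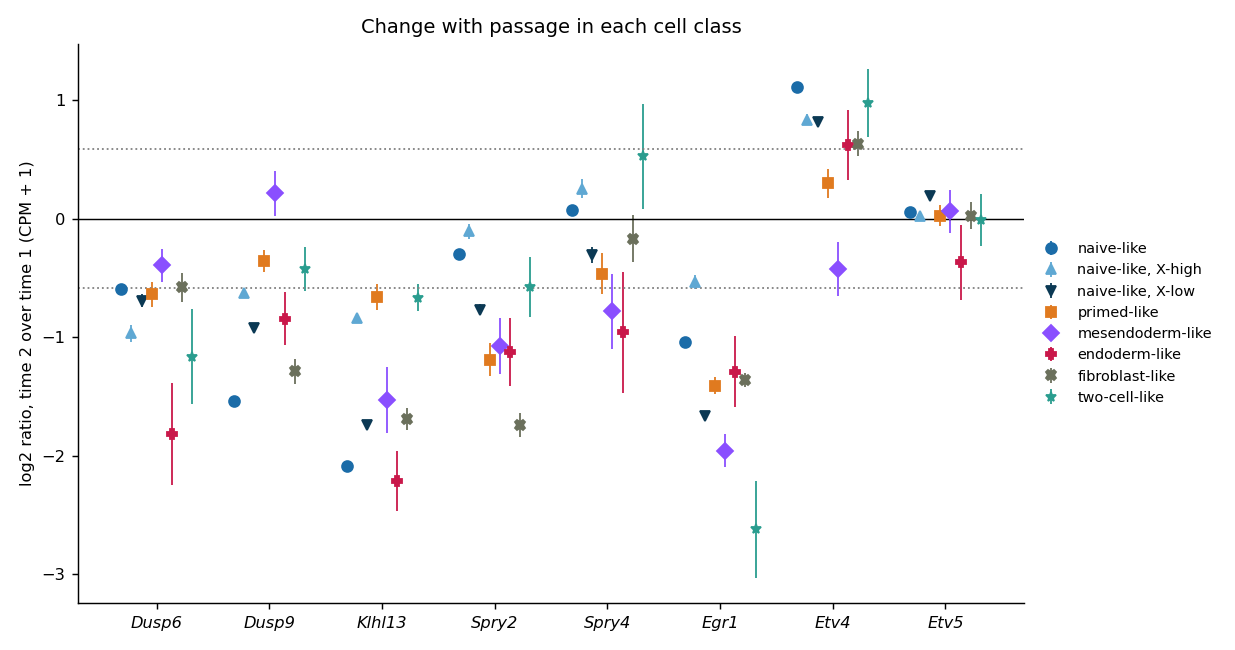
Log2 ratio of CPM + 1, time 2 over time 1, for each gene in 6 classes and in naive-like cells of high and low X dosage; bars are 95% intervals for counting error and dotted lines mark 1.5-fold. Egr1 lies below 0 in all 8 groups of cells, from -2.62 to -0.53, and Etv5 lies between -0.37 and 0.19.

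Over the 6 classes the genes differed in how evenly they moved. Egr1 and Klhl13 fell in 6 of 6 classes, from -2.62 to -1.04 for Egr1 and from -2.21 to -0.66 for Klhl13. Among the 6 is the fibroblast-like class, which may hold feeders. In primed-like cells Klhl13 was under the limit with free RNA subtracted (-0.46). Dusp6 was below 0 in 6 of 6 and passed in 4. Its naive-like call was lost under several alternatives, such as TMM scaling (-0.45), and its primed-like call at Leiden resolution 1.0 (-0.56) and with the 8 genes and lists kept in the clustering (-0.53). Spry2 was below 0 in 6 of 6 and passed in 4, not in naive-like (-0.30) nor two-cell-like cells (-0.58). Etv4 rose in 4 of 6 classes. Of these, fibroblast-like cells fell under the limit with thinning to 10000 UMIs (0.31) and with the 8 genes and lists kept in the clustering (0.56), and endoderm-like cells with thinning (0.35) and with doublets kept (0.53). Etv4 stood at -0.42 in mesendoderm-like cells, and Etv5, its close relative, passed in 0 of 6. Free RNA changed alike: in barcodes below the cell limit Egr1 stood at 141 CPM at time 1 and 34.7 CPM at time 2, Klhl13 at 337 and 73.7 CPM, Spry2 at 60.9 and 33.5 CPM, and Etv4 at 32.9 and 53.8 CPM.

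Of the immediate early and ETS genes, more fell than rose with passage in each class, though not within each cluster. In naive-like cells 6 of 20 tested immediate early and ETS genes fell and 1 rose with passage (median -0.29, beside -0.06 for all genes tested, of which 12.4% fell and 5.31% rose). Jun, a subunit of AP-1, fell from 68.4 to 25.2 CPM and Klf6, a Krüppel-like factor induced by stress and serum, from 91.7 to 38.5 CPM. In primed-like cells 7 of 23 fell and 0 rose (2.42% and 1.08% of all genes), among them Fos (188 to 81.7 CPM) and the orphan receptor gene Nr4a1 (37.9 to 15.3 CPM). In fibroblast-like cells 8 of 25 fell and 0 rose (6.25% and 3.59% of all genes), with Fos at 90.9 and 42.5 CPM and Jun at 244 and 119 CPM. In mesendoderm-like cells 5 of 24 fell and 3 rose, with a median of -0.07 (9.19% and 4.59% of all genes). The counts were 5 and 1 of 20 in endoderm-like cells (16.3% and 14.3%), and 9 and 0 of 20 in two-cell-like cells (12.7% and 5.78%). Of the other feedback genes, 6 of 17 fell and 2 rose in naive-like, 3 of 19 fell and 0 rose in primed-like, and 7 of 19 fell and 1 rose in fibroblast-like cells. In mesendoderm-like cells 1 of 18 fell and 2 rose (9.19% and 4.59% of all genes). Spry1 fell in naive-like (13.8 to 4.38 CPM), primed-like (20.8 to 7.31 CPM) and fibroblast-like cells (9.45 to 3.24 CPM). Ccnd1, the cyclin D1 gene and an ERK target, rose in naive-like cells from 102 to 181 CPM and in fibroblast-like cells from 368 to 605 CPM. Of the core cascade, 5 of 25 genes fell and 0 rose in naive-like cells, with a median of -0.12 that is near that of all genes, among them the receptor gene Fgfr2 (17.3 to 5.93 CPM) and the X-linked kinase gene Araf (38.8 to 20.9 CPM), while in primed-like cells 0 of 25 passed.

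Because different clusters made up the naive-like class at the 2 times, the change was also read within single clusters: the 5 naive-like ones and the unnamed T-led, Krt18-led and Ctla2a-led clusters, which are not part of that class. Within the Rhox9-led cluster (4615 and 467 cells) Klhl13 stood at 436 and 371 CPM, a ratio of -0.23, and Dusp9 at 180 and 154 CPM, a ratio of -0.22, far from the class values of -2.09 and -1.54. Within the Dppa3-led cluster (3530 and 562 cells) the ratios were -0.25 for Klhl13 and -0.10 for Dusp9. Klhl13 fell in the other naive-like clusters, by 1.84 in the Gm46332-led, 0.71 in the Jam2-led and 0.62 in the Nanos3-led cluster on the log2 scale. Over these 8 clusters, those with at least 50 cells at both times that lie outside the other named classes, Klhl13 passed as lower in 5 and Dusp9 in 1. Egr1 fell in 8 of 8, from -2.36 to -0.73. Spry2 fell in 7 of 8. Within the naive-like clusters Spry2 fell in 4 of 5, from -1.24 to -0.67, and was at -0.46 in the Jam2-led cluster, beside its class value of -0.30. Etv4 was at 0.58 in the Rhox9-led cluster (22.0 and 33.2 CPM) and -0.02 in the Dppa3-led cluster (37.9 and 37.4 CPM), so its class ratio of 1.11 was larger than that of each naive-like cluster. Of the 8 genes, 2 passed in the Rhox9-led cluster (4.53% of all genes), 3 in the Dppa3-led (2.46%), 3 in the Jam2-led (5.72%), 5 in the Nanos3-led (6.99%) and 4 in the Gm46332-led cluster (8.48%). In the unnamed clusters 6 passed in the T-led (7.05%), 4 in the Krt18-led (9.09%) and 6 in the Ctla2a-led cluster (24.1%). The lowest Egr1 ratio, -2.36, was that of the Ctla2a-led cluster.

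**Figure D3:**
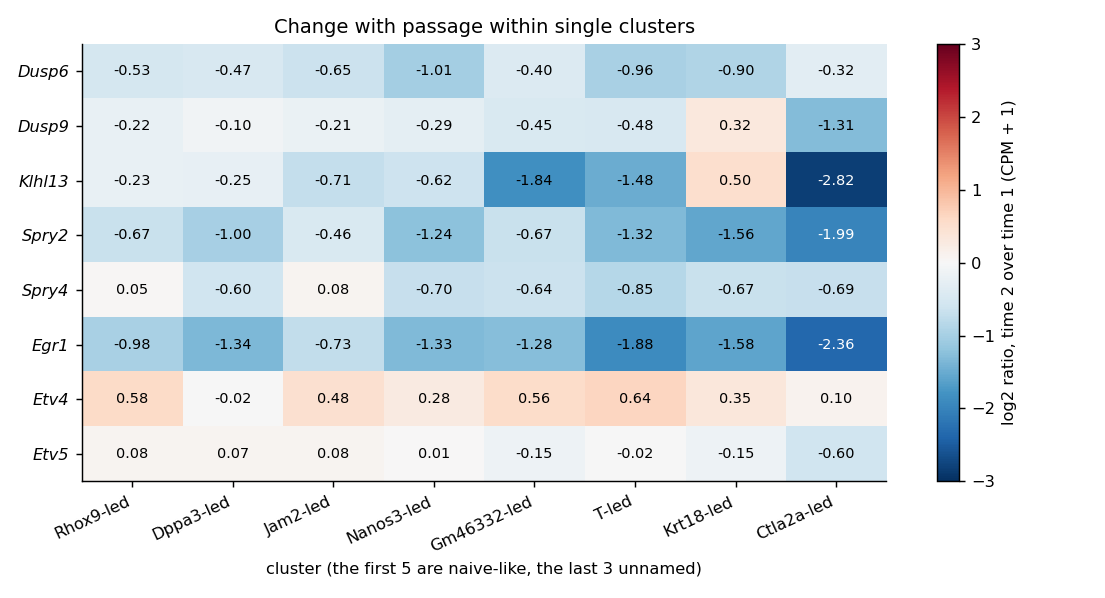
Log2 ratio of CPM + 1, time 2 over time 1, within 8 clusters that had at least 50 cells at both times, for each gene (rows). The Egr1 row is negative throughout, the Dusp9 row stays between -0.48 and 0.32 except in the Ctla2a-led cluster (-1.31), and the Klhl13 row runs from -2.82 to 0.50.

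X dosage was read for each naive-like cell as its ratio of X-linked to autosomal UMIs, without the 8 genes and relative to cells with Y transcripts. Cells without a Y UMI and with a ratio of at least 1.2 are called X-high and those below it X-low. X-high cells numbered 5415 (57.0% of naive-like cells) at time 1 and 2957 (15.0%) at time 2, and X-low cells 2744 (28.9%) and 14287 (72.3%). Called autosome gains moved with this class: 4.32% of X-high and 31.9% of X-low cells at time 1, and 16.3% and 93.9% at time 2, had a gain.

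X-high cells held more of both X-linked genes than X-low cells, by more than most X-linked genes. At time 1 Klhl13 stood at 425 CPM in X-high and 147 CPM in X-low cells, and Dusp9 at 172 and 59.0 CPM, both a log2 ratio of 1.52. At time 2 the levels were 237 and 43.4 CPM for Klhl13 (2.43) and 111 and 30.7 CPM for Dusp9 (1.82). The other X-linked genes tested, which defined the classes, had medians of 0.76 at time 1 and 0.81 at time 2. Dusp9 and Klhl13 each exceeded 323 of 351 of them at time 1, and at time 2 they exceeded 299 and 309 of 325. Cells with Y transcripts resembled X-low cells, with 58.3 and 33.6 CPM of Dusp9 and 182 and 57.3 CPM of Klhl13.

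Egr1, Spry2, Spry4 and Etv4 were lower in X-high cells at time 1. Egr1 stood at 24.9 CPM against 60.7 CPM in X-low cells (log2 ratio -1.25), Spry2 at 15.3 against 29.9 CPM (-0.93), Spry4 at 8.63 against 14.9 CPM (-0.72) and Etv4 at 24.1 against 38.9 CPM (-0.67). With the X-linked pair this made 6 of 8 genes, where 9.05% of 9305 genes passed, 6.81% of genes being higher and 2.24% lower. At time 2 the count was 3 of 8 (11.9% of genes, 9.09% higher and 2.77% lower): Etv4 was lower too, at 43.8 against 69.2 CPM (-0.65; -0.56 with doublets kept), while Egr1 was at 16.9 against 18.5 CPM (-0.12), Spry2 at 14.1 against 17.2 CPM (-0.27) and Spry4 at 10.5 against 11.8 CPM (-0.16). Dusp6 was at 18.2 against 22.1 CPM at time 1 (-0.26) and 8.84 against 13.3 CPM at time 2 (-0.54). The time 2 ratio of Dusp6 passed the limit among cells with no called gain (-0.83), with TMM scaling (-0.64) and with X-high set at 1.4 or more (-0.63). Etv5 was at 59.8 against 53.2 CPM (0.17) and 60.8 against 60.7 CPM (0.00). Among cells with no called gain the ratios at time 1 were -1.34 for Egr1, -1.02 for Spry2, -0.72 for Spry4 and -0.63 for Etv4, and at time 2 Egr1 stood at -0.61, past the limit, and Etv4 at -0.35, under it. The ratio of Klhl13 at time 2 was 1.16 among these cells, in place of 2.43, and that of Dusp9 1.62. Other immediate early genes were divided at time 1: Fos was at 23.1 CPM in X-high and 36.4 CPM in X-low cells, and Atf3 at 8.57 and 3.90 CPM. Within the Dppa3-led cluster at time 1, where X-high and X-low cells share a cluster, the ratio of Egr1 was -0.77, and Spry2 (0.10), Spry4 (-0.04) and Etv4 (-0.20) did not pass the limit. Of all genes 0.538% were lower there. Within the Rhox9-led cluster at time 1 (4098 X-high and 180 X-low cells) Egr1 (-0.70) and Spry2 (-1.03) passed, and Spry4 (-0.48) and Etv4 (-0.58) did not. Of all genes 2.32% were lower there. At time 2 the clusters differed: in the Jam2-led cluster (1936 and 67 cells) Egr1 stood at -1.30, Spry4 at -1.16 and Spry2 at -0.80, whereas Egr1 was at -0.02 in the Dppa3-led, -0.20 in the Nanos3-led and 0.36 in the Gm46332-led cluster. In the Jam2-led cluster 4 of the 8 genes were lower, where 7.02% of all genes were lower and 5.43% higher. In the Dppa3-led, Nanos3-led and Gm46332-led clusters at time 2, 0 of the 8 were lower (2.07%, 0.147% and 0.311% of all genes).

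**Figure D4:**
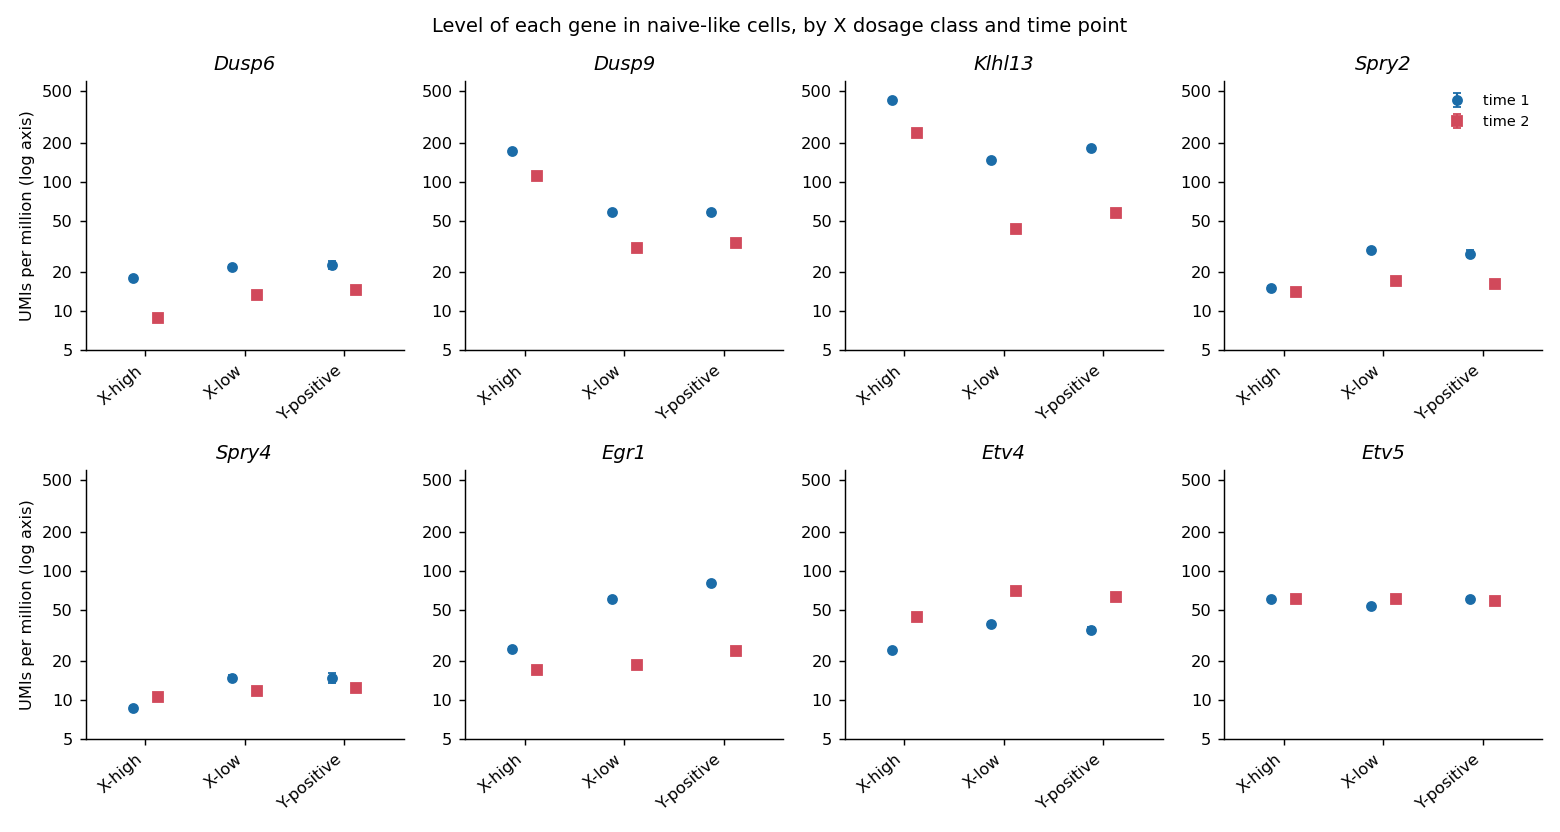
Level of each gene, in CPM on a log axis, in naive-like cells of high X dosage, of low X dosage and with Y transcripts, at time 1 (circles) and time 2 (squares), with exact Poisson 95% intervals. Dusp9 and Klhl13 are highest in X-high cells at both times; Egr1, Spry2, Spry4 and Etv4 are lowest there at time 1.

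Within an X class the change with passage was smaller for the X-linked pair than over the whole class. In X-high cells Klhl13 fell by 0.84 and Dusp9 by 0.63 on the log2 scale, and in X-low cells by 1.74 and 0.92. Among X-low cells with no called gain the ratio of Klhl13 was -0.60 and that of Dusp9 -0.74. Over all naive-like cells with no called gain Klhl13 stood at -0.75 and Dusp9 at -0.57, the latter under the limit, beside -2.09 and -1.54 in all naive-like cells. The X-high share, autosome gains and passage moved together in these libraries, and their parts cannot be told apart. Egr1 fell by 1.66 in X-low cells and had a ratio of -0.53, under the limit, in X-high cells (-0.59 and past it after thinning); the difference between the classes was not tested. Dusp6 fell by 0.97 in X-high and 0.69 in X-low cells. Spry2 fell by 0.77 in X-low cells and was at -0.11 in X-high cells, while Spry4 (0.25 and -0.31 in X-high and X-low cells) and Etv5 (0.02 and 0.19) passed in neither, and Etv4 rose by 0.84 and 0.82. Among cells with no called gain, Etv4 in X-low cells (0.53) and Dusp9 in X-high cells (-0.55) no longer passed the limit. In X-high cells 4 of 8 genes passed (12.3% of all genes), 1 higher (4.11%) and 3 lower (8.18%). In X-low cells 6 of 8 passed (15.5%), 1 higher (5.22%) and 5 lower (10.2%).

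Spry2 lies on chromosome 14, which was gained in 4194 of 19765 naive-like cells (21.2%) at time 2 when called without Spry2. Cells with the gain had 26.0 CPM of Spry2 and those without it 14.2 CPM, a log2 ratio of 0.83 (0.78 to 0.87). The 334 other genes of the chromosome that were tested had a median of 0.48. The gain was called from the UMIs of this chromosome, so a median above 0 follows from the choice of cells. It is no independent measure of dosage. Within X-low cells alone the Spry2 levels were 25.7 and 14.3 CPM (0.80), higher than the ratio of 97.0% of the other chromosome 14 genes. Genes on other chromosomes differed as well between these cells. Klhl13 stood at 11.1 CPM with and 92.2 CPM without the gain (-2.94), and within X-low cells at 10.6 and 54.4 CPM (-2.26), the largest gap of the 8 genes. Etv4 was at 83.8 and 59.5 CPM (0.49) and Spry4 at 15.5 and 10.7 CPM (0.50), while Etv5 was at 60.7 and 60.4 CPM. Line and gain cannot be told apart here.

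At time 1 the Spry2 level of 3 unnamed clusters lay above those of the 6 classes, in part narrowly. Fibroblast-like cells stood at 72.1 CPM, and those of them outside the clusters with low core markers at 83.7 CPM. The smallest of the 3, the Card19-led cluster of 70 cells at 75.1 CPM, had a median of 352474 UMIs per cell. The Rpgrip1-led and Ulk4-led clusters, with 2128 and 3357 cells at time 1 and 2 and 29 at time 2, had Spry2 as their second leading gene, with Notch2 and Rpgrip1 among the others. Their Spry2 levels were 90.8 and 73.8 CPM, against 20.7 CPM in naive-like cells. Spry4, the other Sprouty gene, was at 7.26 and 13.1 CPM there, near its naive-like value of 11 CPM. The Ulk4-led cluster was shallow, with a median of 26020 UMIs, and its profile had a correlation of 0.979 with that of free RNA (over 9767 genes, log2 CPM), the highest of the clusters at time 1. Free RNA held 60.9 CPM of Spry2, less than either cluster. Adding both clusters to the naive-like class turned the passage ratio of Spry2 from -0.30 to -1.14. Both were picked for Spry2 among their leading genes and lay almost wholly in the time 1 library. Their addition had to lower this ratio, so the value shows only how much it depends on them.

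Correlations of the 8 genes over single cells were small and ran both ways. Pearson correlations were taken over cells of 1 class and 1 library, on log counts after thinning each cell to 10000 UMIs; they are descriptions, since the cells share a library and most of these genes have few UMIs per cell. The median over the 28 pairs was 0.017 in 9495 naive-like cells at time 1 and 0.0079 in 19765 at time 2, beside 0.0015 and 0.0012 over all pairs of detected genes. In primed-like cells the medians were 0.0087 and 0.0012. In naive-like cells 6 of the 28 pairs lay above the 99th percentile of all gene pairs and 7 below the 1st at time 1, and 3 and 1 did at time 2; each pair below the 1st percentile held Dusp9 or Klhl13. The largest value was that of Dusp9 and Klhl13, 0.227 at time 1 and 0.201 at time 2. Within X-low cells it was 0.028 and 0.024. Across cells Klhl13 had a correlation with X dosage of 0.506 at time 1 and 0.505 at time 2, and Dusp9 of 0.387 and 0.359.

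The largest negative values at time 1 were those of the X-linked pair with Egr1, and they were smaller within X-low cells. Dusp9 and Egr1 had -0.146 and Klhl13 and Egr1 -0.130 in naive-like cells at time 1, and -0.034 and -0.020 at time 2. Within X-low cells at time 1 the values were -0.037 and 0.0076, and with cluster means subtracted they were -0.068 and -0.029. In primed-like cells at time 1 Dusp9 and Egr1 had -0.116. Klhl13 and Etv4 had -0.123 at time 2 and -0.077 at time 1, or -0.084 and -0.025 within X-low cells. Etv5 had no such negative values, with 0.029 and 0.012 for Klhl13 and 0.0037 and -0.0055 for Dusp9. Spry2 and Spry4 had 0.051 and 0.054 and Dusp6 and Spry2 0.058 and 0.031, whereas Dusp9, the X-linked phosphatase gene, had -0.023 and -0.014 with Dusp6 and -0.092 and -0.0057 with Spry2. In primed-like cells at time 1 Dusp6 and Egr1 had 0.065. Values of the size of the positive ones in sparse counts are near the 99th percentile of all gene pairs, 0.049 at time 1 and 0.042 at time 2 in naive-like cells, and are no finding on their own.

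**Figure D5:**
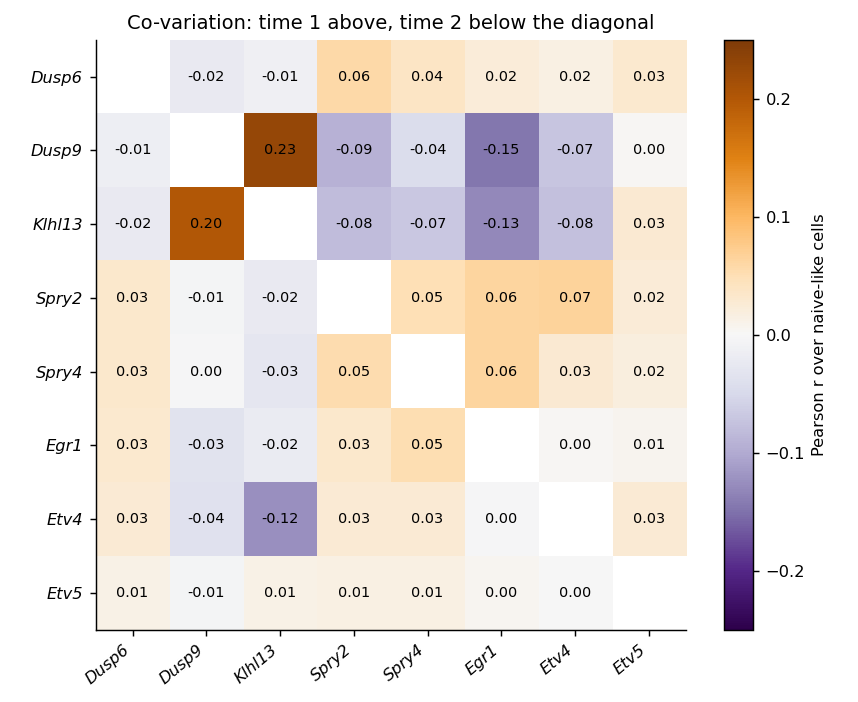
Pearson correlation of each pair of genes over naive-like cells, 9495 at time 1 (above the diagonal) and 19765 at time 2 (below it), after thinning to 10000 UMIs per cell. The pair of Dusp9 and Klhl13 stands out at both times, and the negative values of these 2 genes with Egr1 are seen at time 1.

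The genes most like each member, by mean correlation over both libraries among 8292 genes, are given as a description. Rpl39 and Bex3, both X-linked, were among the 3 nearest to Dusp9 (0.272 and 0.248) and to Klhl13 (0.354 and 0.304), and each had 1 more X-linked neighbour, Rpl10 for Dusp9 (0.239) and Rhox5 for Klhl13 (0.330). Nearest to Egr1 were the immediate early genes Fos (0.137) and Ier2 (0.101), and then Pnrc1 (0.086). Etv4 was nearest to Tdh (0.104), the threonine dehydrogenase gene of mouse ES cells, Mymx (0.095) and Tcf15 (0.093). Spry2 was nearest to G3bp2 (0.099), the naive factor gene Klf4 (0.085) and Upp1 (0.084). For Dusp6 (Spry2, Bmp4 and Mkrn1, 0.040 to 0.045), Spry4 (Zfp36l1, Bmp4 and Egr1, 0.057 to 0.067) and Etv5 (Peg3, Tet1 and Wapl, 0.057 to 0.060) the highest values were too low to set a neighbour apart.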

How the data were processed

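Counts of unique molecular identifiers (UMIs) per gene and barcode were deposited by the authors for 1 library per time point (10x version 3.1 chemistry, per the labels' protocols). They were made with bcl2fastq 2.20.0.422 and Cell Ranger 6.1.2 on mm10 (GRCm38), per the submitters' processing notes, and are not normalised. The files list 145288 barcodes at time 1 and 52242 at time 2, with 1735810403 and 1843588321 UMIs.

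A barcode was kept as a cell if its UMIs reached 0.1 of the 99th percentile among the 20000 largest barcodes (18315 and 18645 UMIs), if 1000 genes or more were detected and if no more than 10% of its UMIs were mitochondrial. The automatic threshold of Scrublet (scanpy 1.11.5) marked 0 and 1 cells and was taken to have failed; the cells in the top 10% of scores were removed as doublets (2526 and 2766). Cells of the 2 libraries were joined and clustered on 2000 variable genes of the autosomes, without the 8 genes and the pathway lists, by 30 principal components, 15 neighbours and Leiden clustering (igraph 0.11.9, resolution 0.5). A cluster was named with 2 markers of 1 class among its 10 leading genes, or 1 where the class's markers had a median log2 fold of at least 3. A cluster was named naive-like with no other class's marker among them and naive markers above primed ones. This rule was set after the clusters were seen, as was the choice to leave the T-led, Krt18-led, Ctla2a-led, Ulk4-led, Rpgrip1-led and Card19-led clusters unnamed.

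UMIs were summed over the cells of a class and compared as log2 ratios of CPM + 1. Exact Poisson 95% intervals on levels and approximate ones on ratios cover counting error only, and with 1 library per group there is no test. A gain was a chromosome's share of UMIs at 1.3 times the time 1 median or more; cells with 2 or more UMIs of Y genes were Y-positive. The rule for named genes took all 8 genes in every comparison (values of some are not printed for the differentiated classes against naive-like cells, within clusters and for chromosome 14), from each of 3 pathway lists (other feedback genes, immediate early and ETS genes, core cascade) up to the 3 highest and 3 lowest past 1.5-fold, and for each gene the 3 most like it. The genes, lists and rules were chosen with earlier results of these data known. Coordinates are from GENCODE M21 and promoters from RefSeq. Ratios, calls and thinning were tested on simulated data. Alternatives changed 1 choice at a time: pseudocount, TMM scaling (edgeR 4.0.16), the filter, doublets, thinning, clustering, free RNA, gains, thresholds, and, for fibroblast-like cells, only those of resolution 1.0 clusters whose core markers had a median log2 of -1 or lower. The software was pandas 2.3.3, scipy 1.17.1 and numpy 2.4.6, under Python 3.11.15.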

Additional observations from a re-analysis of the deposited data

Results flagged for a closer look

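Klhl13 in the Krt18-led cluster stood below naive-like cells at time 1 (86.6 against 324 CPM, a log2 ratio of -1.89) and above them at time 2 (123 against 75.7 CPM, a log2 ratio of 0.69). It drew attention because the same contrast passed 1.5-fold in opposite directions at the 2 times; the naive-like level moved more than that of the cluster. Egr1 in two-cell-like cells lay above naive-like cells at time 1 (66.2 against 40.1 CPM, 0.71) and below them at time 2 (9.92 against 19.0 CPM, -0.87), with 276 and 75 cells. With 1 library per time point neither difference between the times was tested.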

How the results depend on the processing

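Of 1136 values of single genes under an alternative, 63 changed their side of the 1.5-fold limit and 0 changed direction with a call. Beyond the counting interval of the main value lay 317 of the 1136. Of 157 counts, medians and the Spry2 ratio on chromosome 14 under an alternative, 153 kept: a count within 1.5 times, a median or ratio within its interval. Those that did not were these: thinning to 10000 UMIs gave 5 genes past 1.5-fold in endoderm-like against naive-like cells at time 2, in place of 3; a gain threshold of 1.4 gave a Spry2 log2 ratio of 0.66 on chromosome 14, in place of 0.83; and scaling all UMIs to 10000 per cell, without thinning, gave median correlations of 0.057 at time 1 and 0.037 at time 2 in naive-like cells, in place of 0.017 and 0.0079. Depth differs between cells without thinning; otherwise the cause was not tested. Thinning changed 17 calls of 136, TMM scaling 11 of 136, cells with no called gain 8 of 56 and removal of the filter on low values 0 of 136. In naive-like cells the count of genes changed with passage ran from 4 to 6 over 11 alternatives, and in primed-like cells from 3 to 5 over 8. The 6 came with the Spry2-led clusters added, a choice that itself lowers the ratio of Spry2. The call of Dusp6 with passage in naive-like cells was lost under several alternatives: it was -0.45 with TMM scaling, -0.54 at Leiden resolution 1.0 and -0.55 with free RNA subtracted. Other calls moved further in size, such as Spry4 with passage in endoderm-like cells, from -0.96 to -0.03 with thinning. TMM scaling also shifted the ratios of primed-like to naive-like cells at time 2 by -0.15 and those of mesendoderm-like cells at time 2 by -0.19. Chosen after seeing the data were the subtraction of free RNA, the addition of the Spry2-led clusters, the subtraction of cluster means, cells with no called gain within X classes, fibroblast-like cells with low core markers, and Spry2 within X-low cells. No analysis paired by line was made because cells were not tied to lines, and each time point has 1 library. Endoderm-like and two-cell-like classes rest on 70 and 75 cells at their smallest, which limits the precision of genes under about 10 CPM.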
